A study of Mus musculus with 2 samples.

Results

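Binding of TOBF1 was described around Klf2, Klf4 and Klf5, the Krüppel-like factor genes of mouse embryonic stem (ES) cells. Members were the TOBF1 ChIP-Seq peaks with a midpoint inside the gene or up to 100 kb outside it. These were 19 of the 12181 peaks deposited, 2 at Klf2, 6 at Klf4 and 11 at Klf5, and no peak belonged to more than 1 of these genes. The ChIP library came from R1/E ES cells that carried a tagged TOBF1 (A830080D01Rik) on a bacterial artificial chromosome (BAC) and were grown in serum-containing medium with LIF. Chromatin was crosslinked with formaldehyde and DSG, and the tag was precipitated with an antibody against GFP. The input library came from cells with the same construct, with no antibody used, and no file of it was used here. With 1 library in each group there is no replicate error, so counts and scores below are descriptions and carry no test. Peak positions hold no expression values, so the labelled cell type was not checked against markers. Without a precipitation from untagged cells, binding of TOBF1 and signal that open chromatin gives with any antibody cannot be told apart.

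KLF proteins are transcription factors with C-terminal zinc fingers that bind GC-rich and CACCC-containing DNA. In mouse ES cells, Klf4 is a target of LIF and Stat3 signalling, the Klf2 protein is kept stable when MEK is inhibited, as in 2i medium, and Klf5 shares many targets with both. The 3 factors act together to keep ES cells self-renewing, and Klf4 is also a reprogramming factor. Elements far downstream of Klf4 are known to drive its transcription in ES cells.

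No member peak reached the stretch before the start of Klf2 or Klf4, the genes of this set for which the promoter table held an entry. These stretches, each the 250 bases before the annotated start, are shown because they are the start regions that the peaks left out. They come from RefSeq (GRCm38.p6, whose chromosome positions are those of mm10), from chr8:72318812-72319061 on the plus strand and chr4:55532476-55532725 on the minus strand. Capitals mark 2 forms of the KLF motif on either strand, the core CACCC and the longer GGGNGNGG, which may overlap each other.
Klf2 promoter: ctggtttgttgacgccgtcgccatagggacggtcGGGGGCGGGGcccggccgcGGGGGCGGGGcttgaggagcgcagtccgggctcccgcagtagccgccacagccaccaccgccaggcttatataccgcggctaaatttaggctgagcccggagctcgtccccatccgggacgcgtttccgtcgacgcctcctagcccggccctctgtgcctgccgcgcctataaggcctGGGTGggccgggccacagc
Klf4 promoter: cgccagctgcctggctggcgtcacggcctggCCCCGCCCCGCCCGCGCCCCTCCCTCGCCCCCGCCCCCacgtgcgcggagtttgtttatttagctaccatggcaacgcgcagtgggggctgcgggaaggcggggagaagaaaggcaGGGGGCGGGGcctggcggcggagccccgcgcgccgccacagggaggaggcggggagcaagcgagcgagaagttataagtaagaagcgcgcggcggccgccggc

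The core CACCC had 1 match before Klf2 and 0 before Klf4, and 52.0% of all 32851 promoter stretches of this length held it. GGGNGNGG had 4 matches before Klf2 and 9 before Klf4, overlapping matches counted, and 45.9% of all stretches held it. Neither stretch held the octamer ATGCAAAT of Oct4 (1.60% of all stretches), the half-site TCAAGGTCA of Esrrb (0.387%) or the palindrome TTCCNGGAA of Stat3 (0.913%). Both were rich in G and C, at 71.2% for Klf2 and 74.0% for Klf4, against a median of 52.4% over all stretches. The nearest peak ended 2.42 kb from the Klf2 stretch and 4.98 kb from the Klf4 stretch. Among the 17492 protein-coding genes of the promoter table, 1.57% had a peak midpoint within 1 kb of an annotated start, so the lack of one at these genes was the usual case. The bases under the peaks themselves were not analysed here.

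All 3 genes had a peak inside or up to 10 kb outside the gene, called near peaks here, and all 3 had distal peaks, over 10 kb and up to 100 kb away. Of all 21887 protein-coding genes, 21.6% had a near peak and 59.0% had a near or a distal one. With peaks under the median score left out, Klf2 and Klf4 each had 1 near peak and Klf5 had 0. The share of all genes with a near peak was not recomputed at that threshold. The 3 KLF genes differed in how many peaks surrounded them. Klf5 had 11 peaks, a number that 0.772% of protein-coding genes reached, and Klf4 had 6, which 3.59% reached. Klf2 had 2, which 31.3% of genes reached. The shares moved with the settings: with windows of 50 and 200 kb, 8.67% and 9.11% of genes reached the number at Klf4, and 17.8% and 54.3% that at Klf2. For Klf5 the share was 0.251% without dense regions, and 1.91% when peaks under the median score were left out, which left 4 peaks each at Klf4 and Klf5 and gave 14.9% for Klf2. The median over all protein-coding genes was 1 peak (quartiles 0 and 2). Klf5, 14722 bp long, spans more than Klf4 (5339 bp) or Klf2 (2593 bp), though all 3 are shorter than the median protein-coding gene (17169 bp).

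**Figure D1:**
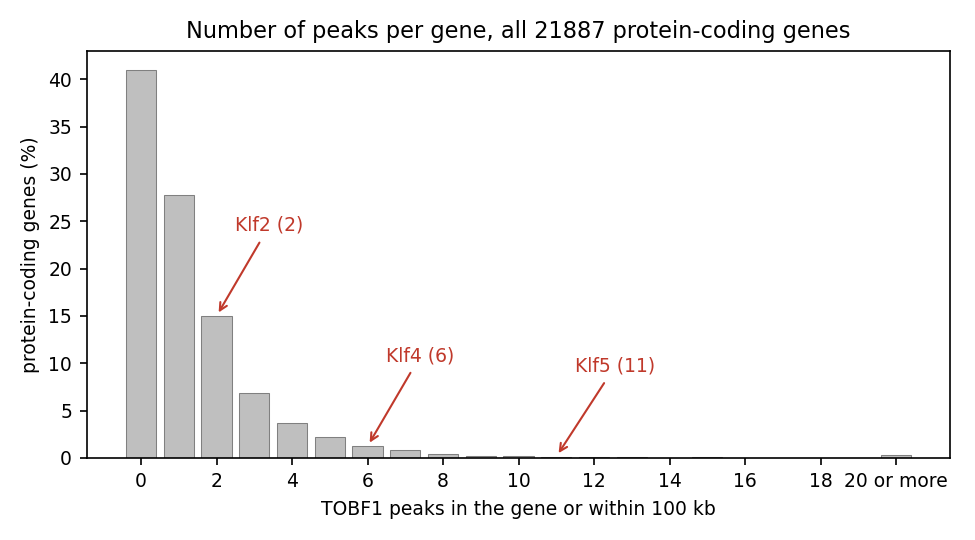
Share of the 21887 protein-coding genes (y axis, %) by the number of TOBF1 peaks in the gene or within 100 kb (x axis, with 20 or more in the last bar). Arrows mark Klf2 with 2 peaks, Klf4 with 6 and Klf5 with 11. Klf2 stands within the bulk of genes, and Klf4 and Klf5 stand in the right tail at this window and with all peaks counted.

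Median scores over all peaks of a gene ran the other way. The score is the peak caller's own value for a peak, given by the authors and taken to be a −log10 q-value, so a higher score marks a more certain peak. The median score was 68.4 over the 2 peaks of Klf2, 11.9 over the 6 of Klf4 and 5.58 over the 11 of Klf5, beside a median of 9.97 over the whole list. The order of Klf4 and Klf5 depended on the peaks taken. Over distal peaks only, the median was 13.9 at Klf5 and 11.9 at Klf4, with 4 and 1 of them in the highest quartile. The highest single score was 41.5 at Klf4 and 33.5 at Klf5. Of the 19 member peaks, 7 lay in the highest quartile of the list, at 18.99 or above, where 25.0% of all peaks lie by definition. Another 8 lay in the lowest quartile, at 5.93 or below. The members thus held both strong and weak peaks, and their median, 10.7, was close to that of the list.

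At Klf2 (chr8:72319062-72321654) both peaks were among the strong ones of the list. The near peak (chr8:72316093-72316395) lay 2.82 kb upstream of the annotated start, between genes, and its score of 80.2 ranked 163 among the 12181 peaks. The distal peak (chr8:72334212-72334656) lay 12.8 kb beyond the other end of the gene, with a score of 56.6 and rank 439. It was also 6.56 kb from Eps15l1, an endocytic adaptor gene, which was therefore the nearer protein-coding gene. At least 2 peaks of 56.6 or higher lay in or within 100 kb of 0.288% of protein-coding genes, a share that describes Klf2 only, since both limits were taken from its own peaks. The pair stood alone. The next peak on the Eps15l1 side lay 200.3 kb from Klf2 (score 10.5), and on the other side the next lay 573.0 kb away (score 7.41). The other protein-coding genes of the window, Ap1m1, which encodes a subunit of a clathrin adaptor, and Fam32a, had 0 peaks inside or within 10 kb.

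At Klf4 (chr4:55527137-55532475, minus strand) the peaks outside the gene all lay downstream of it. Nearest to the gene was a peak 7.31 kb past the downstream end (chr4:55519691-55519967, score 16.2). A weak peak inside the gene (chr4:55527269-55527493, score 3.25) had its midpoint 244 bp from that same end and 5.09 kb from the annotated start, so the peak at a Klf4 gene end is at the 3′ end. The 4 distal peaks fell into 2 groups. One group held peaks 49.6 kb (chr4:55477465-55477683, score 13.1) and 51.5 kb (chr4:55475439-55475757, score 10.7) from the gene, with a gap of 1.71 kb between them. Farther out, the strongest peak of the locus (chr4:55464359-55464671, score 41.5, rank 922) lay 62.6 kb from the gene and 67.96 kb from its start. Beside it, across a gap of 296 bp, was a weak peak with a score of 2.29 (chr4:55463887-55464062).

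None of these 4 distal peaks lay inside an annotated gene, and Klf4 was the nearest protein-coding gene to every peak of the locus. No other protein-coding gene reached into the 100 kb window. On the upstream side the list held no peak before 519.6 kb (score 8.14), and the 106.5 kb long non-coding RNA gene Gm12506, which borders the Klf4 start, held 0 peaks. Downstream, the next peak after the outer group lay 238.5 kb from the gene (score 6.99). Among the 834 protein-coding genes with at least 5 peaks outside the gene and within 100 kb, 31.2% had them all on 1 side. Having all of them on 1 side, as at Klf4, was thus common among such genes. Neighbouring genes beside the same peaks each entered this count, and how far the peaks spread was not compared.

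At Klf5 (chr14:99298691-99313412) peaks lay on both sides, and the weakest were those nearest to the gene. The gene held peaks with scores of 2.92 (chr14:99301473-99301607) and 2.30 (chr14:99309083-99309256), and another near peak lay 3.05 kb above the upper end with a score of 1.96 (chr14:99316360-99316565). All 3 were in the lowest 4% of the list by rank, at ranks 11724, 11966 and 12039. Above the gene, strong peaks followed at 11.4 kb (chr14:99324642-99324954, score 33.5), 26.6 kb (chr14:99339741-99340194, score 29.5) and 39.9 kb (chr14:99353157-99353367, score 31.3), all in the highest quartile of the list. A weaker one (chr14:99339385-99339633, score 5.20) lay 107 bp from the peak at 26.6 kb.

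Below Klf5, a peak 20.02 kb away (chr14:99278574-99278768) had a score of 19.5, and its neighbour at 23.3 kb (chr14:99275276-99275415) had 4.22. The 2 outermost member peaks, 78.7 kb (chr14:99219942-99220110, score 5.58) and 91.8 kb (chr14:99206840-99206989, score 8.31) from Klf5, were inside Pibf1, which encodes a centrosomal protein. Exons and introns were not annotated here. The peak at 23.3 kb was 20.4 kb from Pibf1 and so also closer to Pibf1 than to Klf5. Klf5 was the nearest protein-coding gene for the other 8 of its peaks. The peak at 91.8 kb was the member closest to the 100 kb limit on the inside. The nearest ones outside it were peaks 190.7 kb below (score 42.5) and 196.4 kb above (score 4.66).

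**Figure D2:**
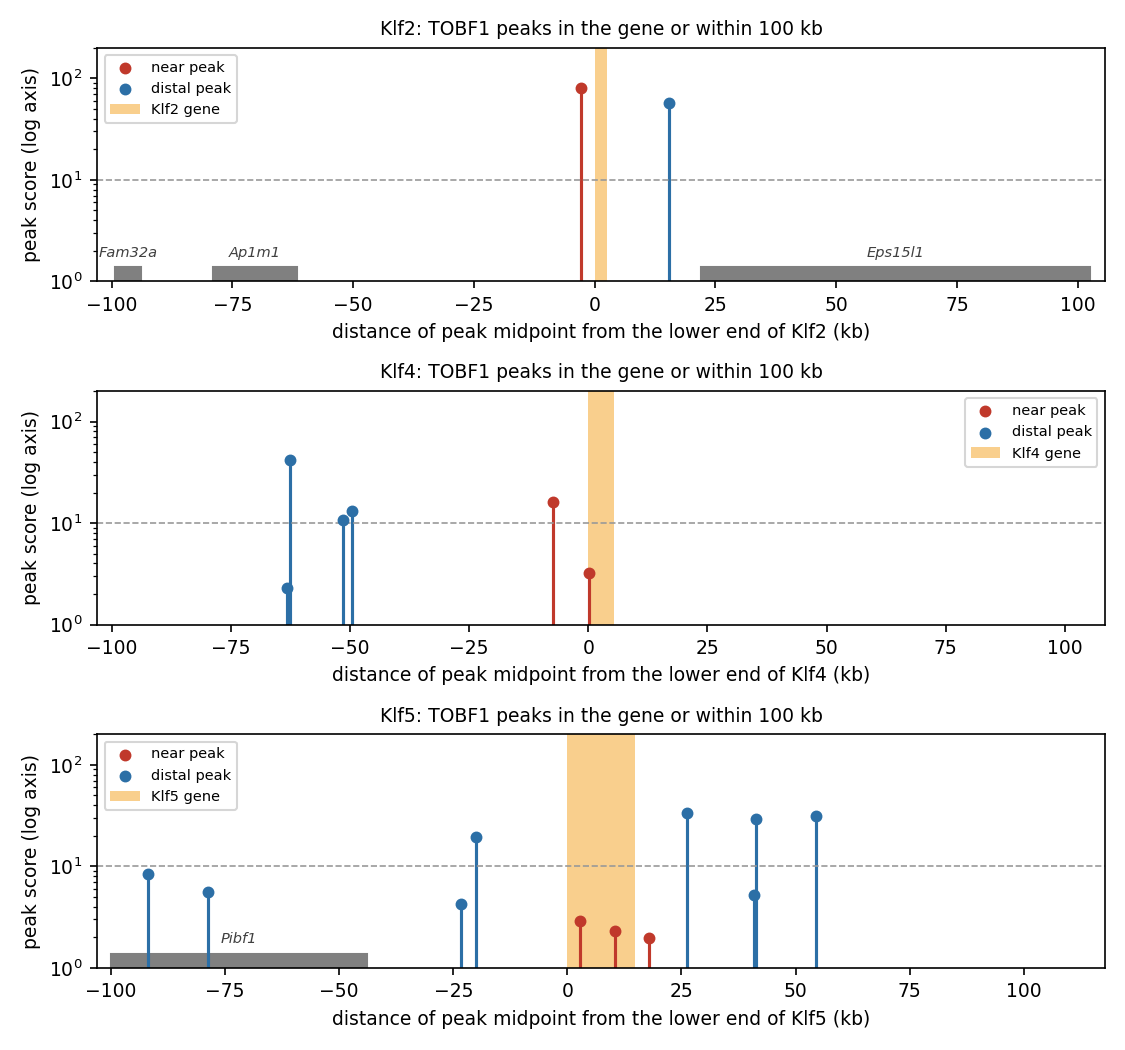
TOBF1 peaks around Klf2, Klf4 and Klf5, with the distance of each peak midpoint from the lower end of the gene on the x axis (kb) and the peak score on a log y axis. Orange spans are the genes, grey bars other protein-coding genes, red stems near peaks, blue stems distal peaks, and the dashed line the median score of the list, 9.97. Klf2 has 2 high peaks close to the gene, the peaks of Klf4 all lie at or below its lower end, which is the 3′ end, and the 3 near peaks of Klf5 are its lowest.

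Near and distal peaks were then compared across the 3 genes. Near peaks were 6 of the 19 members (31.6%, exact Clopper-Pearson 95% interval 12.6 to 56.6%, counting error only). Over all pairs of a protein-coding gene and a peak within 100 kb the share was 27.7%. These shares are not like for like, since near includes the gene itself. Klf2, Klf4 and Klf5 span 2593, 5339 and 14722 bp, against a mean of 48003 bp over all protein-coding genes. The background share was not recomputed for genes of like length. The interval takes the peaks as independent, though 11 of them lay at Klf5 and some were close neighbours. The median score of the near peaks was 3.09, against 13.1 over the 13 distal peaks, a difference of -10.0. Over all peaks of the list sorted by their nearest protein-coding gene, the median was 9.61 for the 6966 near peaks and 10.7 for the 2919 distal peaks, a difference of -1.10. These classes are not quite alike, since members were classed by distance to their KLF gene even where another gene was nearer. By the rule of the list, the distal Klf2 peak, 6.56 kb from Eps15l1, and the 2 Klf5 peaks inside Pibf1 would be near. Lower scores of near peaks were not shared by all 3 genes. At Klf2 the near peak scored higher (80.2) than the distal one (56.6). At Klf4 the near peaks had 16.2 and 3.25, and the distal peaks ran from 2.29 to 41.5, so the classes overlapped. Only at Klf5 did every near peak (1.96 to 2.92) score lower than every distal peak (4.22 to 33.5). When peaks under the median score were left out the difference turned to 17.8, since 2 near peaks, at Klf2 and Klf4, then stood against 8 distal ones. With a near limit of 20 kb the difference was -0.998, and with a window of 50 kb it was -21.4, so its size depends on where the limits are set. The -1.10 of the whole list was computed with the near limit of 10 kb only.

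Of the 2913 protein-coding genes that had both near and distal peaks, the highest peak was distal in 55.3%, as it was at Klf4 and Klf5. Near peaks all scored lower than distal ones in 31.4% of these genes, as at Klf5. That share depends on how many peaks a gene has. Of the 72 genes with at least 3 near and 8 distal peaks, the numbers at Klf5, 1.39% had this arrangement, which was 1 gene, Klf5 itself. These minimums were taken from Klf5 after its values were seen.

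**Figure D3:**
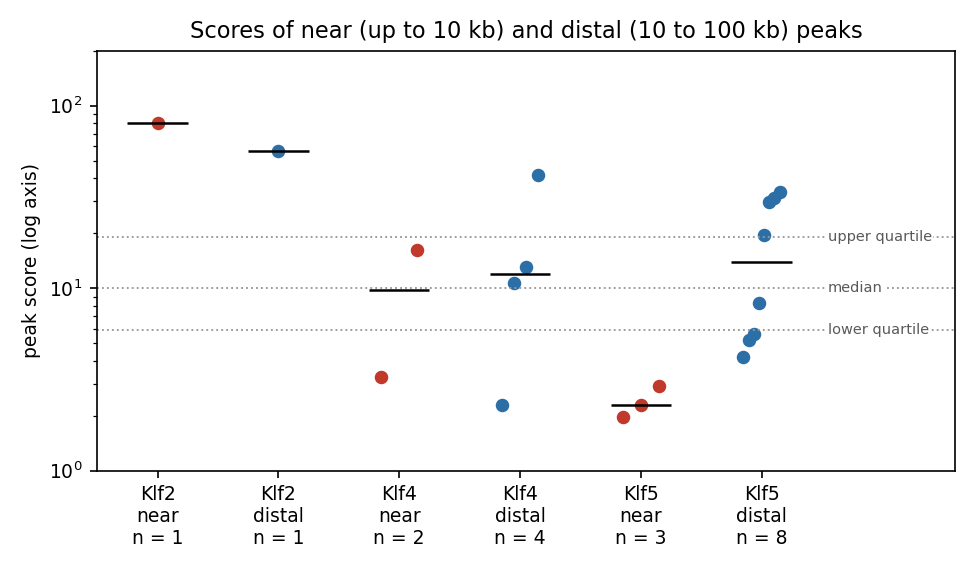
Peak score (log y axis) of each near peak (red) and distal peak (blue) of Klf2, Klf4 and Klf5, with black lines at the medians and dotted lines at the quartiles of the whole list. Points of a class are spread sideways in order of score. The near peak is higher than the distal one at Klf2, the classes overlap at Klf4, and all 3 near peaks of Klf5 lie below its 8 distal peaks.

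By distance, 3 of the 19 peaks lay inside their gene, 3 lay up to 10 kb outside, 6 from 10 to 30 kb, 2 from 30 to 50 kb and 5 from 50 to 100 kb. The mean per gene in these classes was 1.0, 1.0, 2.0, 0.667 and 1.67 at the KLF genes. Over all protein-coding genes it was 0.236, 0.149, 0.236, 0.227 and 0.543. The means pooled over the 3 genes were above this background in every class, though each rests on 2 to 6 peaks. Klf2 had 0 peaks inside, from 30 to 50 kb and from 50 to 100 kb, and Klf4 had 0 from 10 to 30 kb. Of the 6 peaks from 10 to 30 kb, 5 belonged to Klf5. In all, 14 of the 19 member peaks (73.7%, exact 95% interval 48.8 to 90.9%, counting error only) lay outside every annotated gene of any type, against 49.1% of the 12012 peaks on the chromosomes. This interval, too, takes the peaks as independent. The share also depends on how much of each window genes cover, and windows of like cover were not compared. The Klf4 window held 0 other protein-coding genes and the Klf5 window held 1, Pibf1. Another 3 member peaks lay inside the KLF genes and 2 inside Pibf1.

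Member peaks resembled the list in width. Their median width was 219 bp (range 135 to 454 bp), against 216 bp over all peaks. Wider peaks tended to score higher, with a Spearman's rho of 0.66 over the 19 members and 0.57 over all 12181 peaks. Both measures come from the same peak call. The widest member was the distal Klf5 peak at 26.6 kb (454 bp), followed by the distal Klf2 peak (445 bp). Member peaks with a gap of up to 1 kb formed 2 pairs, with scores of 41.5 and 2.29 in the outer pair of Klf4 and of 29.5 and 5.20 in the pair above Klf5. Over the 1177 neighbouring pairs on the chromosomes with gaps up to 1 kb, the median was 11.3 for the higher score and 5.43 for the lower.

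Other genes of the KLF family gave a background within the family. Of the 14 that matched a protein-coding gene (Klf18 did not), 6 had a peak in the gene or within 10 kb (42.9%) and 10 had one within 100 kb (71.4%), against 21.6% and 59.0% of all protein-coding genes, with a median of 2 peaks within 100 kb. The near scores were highest at Klf9 (33.3) and Klf6 (31.0), both rapidly induced by hormones or growth signals in many cells. Klf12 (19.6), Klf8 (14.4), Klf7 (13.4) and Klf15 (8.96) followed. Klf2, at 80.2, was above all of them, Klf4, at 16.2, was in the middle, and Klf5, at 2.92, was below all of them. Within 100 kb the highest score of the family was at Klf9 (84.8) and not at Klf2. Klf12 equalled Klf5 with 11 peaks, but that gene spans 419711 bp. Klf3, Klf10, Klf11 and Klf13 had peaks only beyond 10 kb. Klf1, the factor of red cell development, and Klf14, Klf16 and Klf17 had 0 within 100 kb.

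**Figure D4:**
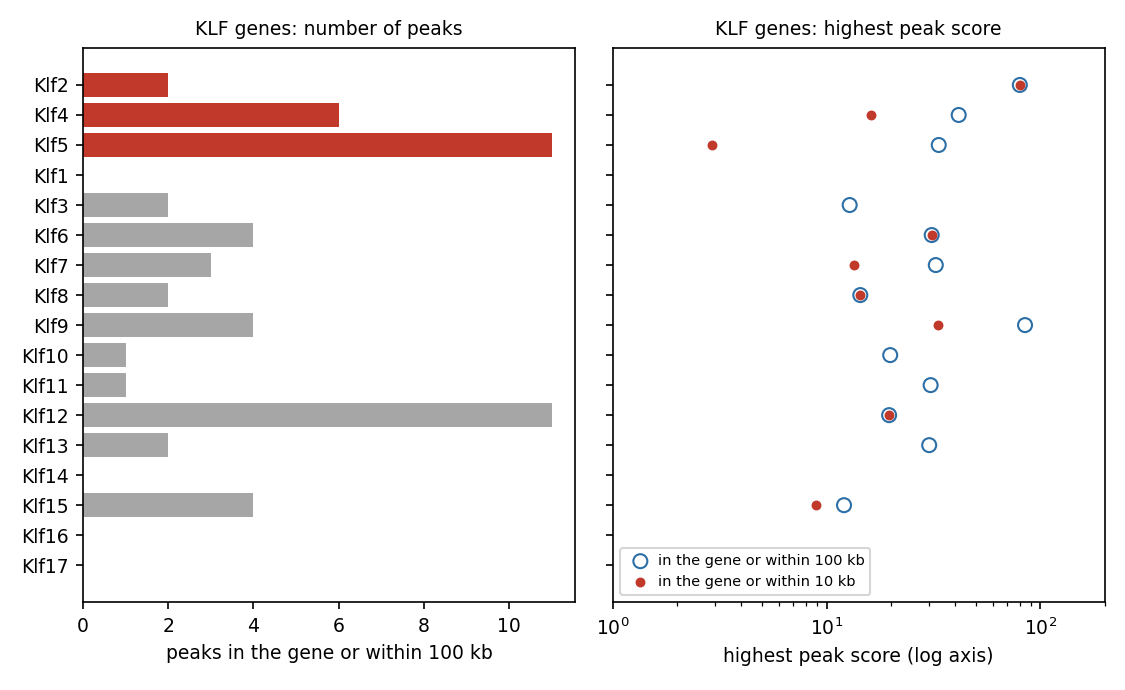
Left, number of TOBF1 peaks in the gene or within 100 kb (x axis) for Klf2, Klf4 and Klf5 (red bars) and 14 other KLF genes (grey bars). Right, the highest peak score (log x axis) within 100 kb (open circles) and within 10 kb (red points). Klf5 and Klf12 have 11 peaks each, and Klf5 has the lowest near score of the genes that have one.

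Of 24 genes listed for LIF signalling and the pathways that 2i acts on, 15 had a peak in the gene or within 10 kb (62.5%) and 18 had one within 100 kb (75%), against 21.6% and 59.0% of all protein-coding genes. The counts include Tcf3 (near score 11.3), which in this annotation is the E2A gene and not a gene of these pathways. The Wnt repressor gene once also called Tcf3 is Tcf7l1, which is listed separately. The listed genes are longer, with a median of 25772 bp against 17169 bp. The near scores were highest at Il6st (76.8), which encodes the receptor chain gp130, Tfcp2l1 (58.6), a transcription factor gene induced by LIF, Tcf7l1 (41.9), a repressor gene of the Wnt pathway, and Lifr (37.5), the LIF receptor gene. The near score of Klf2 was above all 24. Esrrb, with 11 peaks within 100 kb, matched Klf5 in number, and all 11 of its peaks were near, where Klf5 had 3. Near includes the gene itself, and Esrrb spans 160512 bp against 14722 bp for Klf5. Stat3, the factor through which LIF acts on Klf4, had 0 peaks within 100 kb, as did Jak1, Pim3, Map2k2, Gsk3a and Ctnnb1.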

How the data were processed

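TOBF1 ChIP-Seq peaks from 1 library were analysed, and a file of the input library was not used here. Per the submitters' processing notes, the authors used cutadapt, Bowtie2, MACS2 and bedtools with the mm10 build. Which versions, settings and control served the peak call is not given in the sources used here. Scores as deposited were taken to be −log10 q-values, since the lowest value, 1.30, lies just above −log10 of 0.05. Sequencing depth is unknown.

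A peak was placed by its midpoint, and distances run to the nearer end of the RefSeq gene span (GRCm38.p6 table). Strand came from the promoter table, which holds 2 of the 3 genes. The 169 peaks on scaffolds entered the ranks and quartiles only. Genes named were Klf2, Klf4 and Klf5, protein-coding genes of their windows, KLF genes, and the 4 highest-scoring of the LIF and 2i list. Gm12506, Esrrb, Stat3 and the other list members without a peak were added after their values were seen. Members and lists were chosen with earlier results of these data known. The motif search planned for peaks was made in promoter stretches, since no genome sequence was used. Alternatives changed the score threshold, overlap rule, merging, dense regions, window, near limit and background genes. On simulated data, peaks put at known distances from 200 genes were counted with 0 errors. Software was pandas 2.3.3 with NumPy 2.4.6, SciPy 1.17.1 for intervals and matplotlib 3.10.9, under Python 3.11.15.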

Additional observations from a re-analysis of the deposited data

How the results depend on the processing

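Of 74 recomputed values, 45 stayed the same by the limits set for them (within 1.5 times for counts, within the exact 95% interval for shares, unchanged for the difference in median score), 28 moved and 1 reversed. These limits differ in width. The interval rests on 19 peaks for the share of near peaks and on 21887 genes for the shares of genes. The tally therefore does not measure how robust the results are. With peaks under the median score left out, near peaks numbered 1 at Klf4 and 0 at Klf5, Klf5 had 4 peaks within 100 kb, and the near minus distal difference in median score reversed to 17.8. At that threshold 14.9% of protein-coding genes had as many peaks as Klf2 and 1.91% as many as Klf4 or Klf5. Merging peaks within 1 kb gave 30.1%, 3.92% and 0.452% for Klf2, Klf4 and Klf5, and a difference of -16.4. Without dense regions (runs of at least 6 peaks with no gap over 10 kb), 2.76% reached Klf4 and 0.251% reached Klf5. In a 50 kb window Klf4 had 3 peaks, and 17.8%, 8.67% and 0.635% of genes reached Klf2, Klf4 and Klf5, while in a 200 kb window 54.3% reached Klf2 and 9.11% Klf4. The difference was -21.4 with the window of 50 kb and -13.2 with that of 200 kb, both added after seeing the data. With a near limit of 5 kb, Klf4 had 1 near peak and the difference was -11.7, and with 20 kb, Klf2 had 2 and the difference was -0.998. Over autosomal genes only, 32.6% reached Klf2. Over genes no longer than Klf5, a background added after seeing the data, 24.1%, 3.04% and 0.970% reached Klf2, Klf4 and Klf5. Counting any overlap with the window left all values within those limits. The order Klf5, Klf4, Klf2 in number of peaks within the window held with overlap, merging, dense regions left out and both other windows, and at the stricter threshold Klf4 and Klf5 had 4 each. Near peaks at Klf2 and Klf4 were equal in number with either other near limit. Beyond the construction of each setting, the cause was not tested. No paired analysis was possible because each group has 1 library. Scores depend on sequencing depth, which is unknown, so weak peaks such as the near peaks of Klf5 cannot be given a counting error.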
